A study of Homo sapiens with 9 samples.

Results

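The annexins are a family of proteins that bind negatively charged phospholipids in membranes, most of them when calcium is present. The 10 family members analysed here were the genes named ANXA1, ANXA2, ANXA3, ANXA4, ANXA5, ANXA6, ANXA7, ANXA9, ANXA10 and ANXA11, out of 27673 genes in the count table. They were chosen by name, and with it known that ANXA10 rose most in the family after BMAL1 depletion and that ANXA2 fell after ARNT depletion. Their values against the control are therefore given as a description without p-values. Adjusted p-values are given for the direct comparison of the depletions, and not for ANXA10 and ANXA2 there.

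The cells were A498, a human cell line established from a clear cell renal cell carcinoma (ccRCC). In every group they had been infected with a lentivirus and selected with puromycin. The virus encoded a short hairpin RNA (shRNA), which was a control hairpin in the group shControl, targeted BMAL1 in the group shBMAL1 and targeted ARNT in the group shARNT. Each group had 3 biological replicates, so there were 9 libraries of messenger RNA. Each targeted gene had a single shRNA group. The sample titles do not say which hairpin was used, and the study's methods also list an independent BMAL1 hairpin. ARNT pairs with the hypoxia-inducible factors (HIF), BMAL1 pairs with CLOCK to drive the circadian clock, and the study compared what each contributes to HIF2α-driven expression.

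Each annexin has a conserved core of repeats that holds the calcium-dependent membrane-binding sites, and an N-terminal tail that differs between members and binds partner proteins. The family takes part in membrane repair, in vesicle transport, in the resolution of inflammation and in the assembly of plasminogen at the cell surface. ANXA2 binds the small protein S100A10, ANXA1 binds S100A11, and ANXA7 and ANXA11 bind penta-EF-hand proteins such as PDCD6 and sorcin. In the kidney, ANXA4 is known from epithelial cells of the tubules and collecting ducts.

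Library totals ranged from 35269870 to 36099096 counts. ARNT was at 50.5 ± 2.24 CPM (SD, n = 3) in shControl and 9.47 ± 0.432 CPM in shARNT, and the BMAL1 transcript, listed as ARNTL, was at 16.3 ± 0.395 CPM in shControl and 5.02 ± 0.789 CPM in shBMAL1. Each targeted transcript also differed in the other depletion, with ARNT at 32.3 ± 1.52 CPM in shBMAL1 and ARNTL at 23.8 ± 1.31 CPM in shARNT. CPM is the usual depth-normalised count, taken here relative to library sizes that the TMM method of edgeR scaled. Of 7 renal and ccRCC markers all had counts in every group, although NDUFA4L2 had only 0 to 16 counts in a library, and their summed level lay between 7724 and 7780.5 CPM for shControl, between 5692 and 6165 CPM for shBMAL1 and between 2048 and 2207 CPM for shARNT. VIM held most of this sum, with 5974 CPM in shControl and 812 CPM in shARNT, while PAX8 went the other way (36.0 and 100.3 CPM) and KRT18 was at 566 and 563 CPM. Of 8 markers of other cell types, CD3E and HBB were at 0 in all libraries. The summed level of these 8 was 2031 to 2145 CPM, 1787 to 1902 CPM and 186 to 189 CPM in the same order of groups. CD68 held most of it, with 1865 ± 68.2 CPM in shControl, 1792 ± 62.4 CPM in shBMAL1 and 142 ± 6.48 CPM in shARNT, while the leukocyte gene PTPRC had 0 to 12 counts. The stromal marker COL1A1 was at 237 ± 6.93 CPM, 35.7 ± 1.73 CPM and 45.4 ± 4.99 CPM in the same order. The part of these markers in the annexin results was not tested.

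The promoters of 3 members are shown. They belong to the member that rose most (ANXA10), the member that fell most in shARNT (ANXA2), and a member that was lower in both depletions and has a window with a palindromic E-box (ANXA6). Another ANXA6 window held no E-box. ANXA4, which also has an E-box in a window, had a log2 fold change of -0.13 in shBMAL1, and ANXA9, lower in both depletions, had no E-box. A part of the E-box in these changes was not tested. Each is the 250 bases before a RefSeq transcription start in GRCh38.p14, read 5′ to 3′ on the strand of the gene. Capitals mark ACGTG and GCGTG on either strand, which are both cores of the hypoxia response element as the study writes it. The E-box CACGTG, which the clock factors can bind, holds ACGTG on both strands and so counts as 2 overlapping matches.
ANXA10, chr4:168092287-168092536, plus strand: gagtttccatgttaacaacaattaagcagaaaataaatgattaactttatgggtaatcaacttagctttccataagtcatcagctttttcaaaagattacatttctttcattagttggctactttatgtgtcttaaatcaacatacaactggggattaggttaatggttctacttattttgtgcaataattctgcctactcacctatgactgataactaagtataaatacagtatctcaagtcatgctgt
ANXA2, chr15:60397987-60398236, minus strand: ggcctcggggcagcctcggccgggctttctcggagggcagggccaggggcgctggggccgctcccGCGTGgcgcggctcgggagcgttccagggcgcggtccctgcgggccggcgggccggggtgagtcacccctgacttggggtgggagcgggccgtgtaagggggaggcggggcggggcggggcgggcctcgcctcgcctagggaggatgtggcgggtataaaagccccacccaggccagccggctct
ANXA6, chr5:151157780-151158029, minus strand: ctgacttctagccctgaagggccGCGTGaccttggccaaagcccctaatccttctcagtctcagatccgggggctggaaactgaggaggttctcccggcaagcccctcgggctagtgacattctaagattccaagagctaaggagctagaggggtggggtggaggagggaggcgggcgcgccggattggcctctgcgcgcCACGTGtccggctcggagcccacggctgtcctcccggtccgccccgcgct

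The ANXA10 window was rich in A and T. Its GC content was 31.2% and it held 0 CpG dinucleotides, against medians of 58.0% and 11 over 35116 promoter windows of the same length. The ANXA2 window was of the opposite kind, with a GC content of 78.0% and 28 CpG. The ANXA1 window also had 0 CpG (GC content 38.4%). All 10 members matched a RefSeq promoter, with 14 windows in all because some have several starts.

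ACGTG or GCGTG was found in 8 of the 14 windows, against 43.2% of all windows. Counted by gene, 6 of the 10 members had a match in any window. Of all tested genes with a window, 6839 had a match and 3920 had none, so the members are not set apart by this. The E-box CACGTG was found in 2 of them, in the ANXA6 window above and in an ANXA4 window, against 6.34% of all windows. In the ANXA2 window the match was a GCGTG 185 bases before the start. The windows of ANXA1, ANXA3, ANXA7 and ANXA10 held no match. A match is a run of letters and not a shown binding site.

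ANXA10, an annexin with few intact calcium-binding sites that is best known from gastric epithelium, had the widest range of the family. Its counts were 105, 102 and 127 in the shControl libraries, 5075, 4678 and 5052 in shBMAL1, and 496, 525 and 464 in shARNT. Every shBMAL1 library lay above every shARNT library, and every shARNT library lay above every shControl library. The level was 3.37 ± 0.416 CPM in shControl, 144 ± 7.33 CPM in shBMAL1 and 12.5 ± 0.792 CPM in shARNT (SD, n = 3 in each). This was 42.8-fold higher in shBMAL1 than in shControl (log2 fold change 5.42, SE 0.0803) and 3.71-fold higher in shARNT (1.89, SE 0.0927). Of the 15551 genes tested, 5 had a larger fitted rise in shBMAL1 and 364 had a larger one in shARNT. ANXA10 lies on chromosome 4, 169013688 to 169108887 (GRCh37, plus strand, 12 exons). In bulk RNA, a change in the number of cells that express a gene and a change in RNA per cell cannot be told apart.

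**Figure D1:**
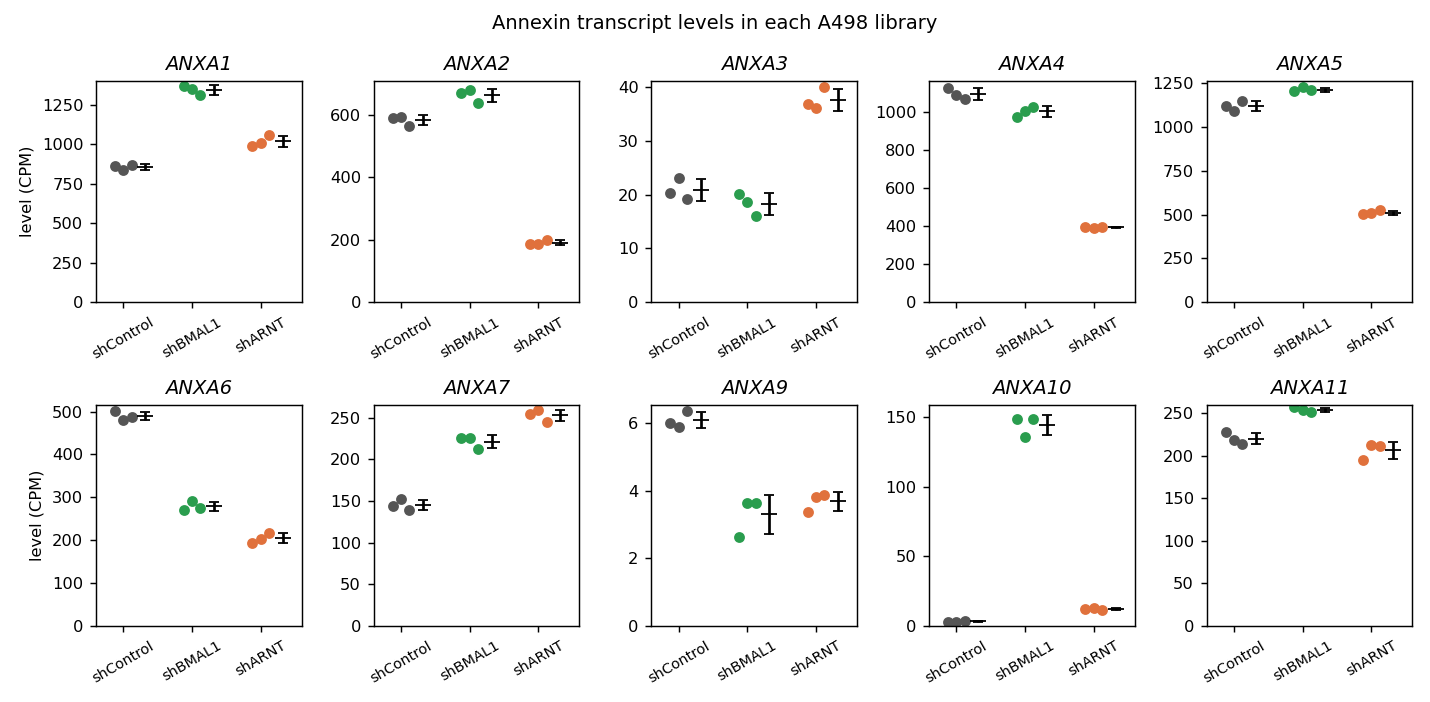
Levels of the 10 annexins in CPM on linear axes from 0, with 1 panel for each gene, 1 point for each library and, beside the points, the mean with its SD for 3 libraries. ANXA10 stands near 144 CPM in shBMAL1 and below 14 CPM in all other libraries, and ANXA2, ANXA4 and ANXA5 are low in all 3 shARNT libraries.

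ANXA2 gathers plasminogen and its activator at the cell surface together with S100A10. It had 19695, 19517 and 18693 counts in shControl, 22917, 23392 and 21718 in shBMAL1, and 7394, 7433 and 7912 in shARNT. The 3 shARNT libraries lay far below the others, and the shBMAL1 libraries lay slightly above shControl without overlap. Its level was 583 ± 15.2 CPM in shControl, 663 ± 21.3 CPM in shBMAL1 and 191 ± 6.98 CPM in shARNT. In shARNT it was 3.05-fold lower than in shControl (log2 fold change -1.61, SE 0.0393), and in shBMAL1 the log2 fold change was 0.18 (SE 0.0380). ANXA2 lies on chromosome 15, 60639333 to 60695082 (GRCh37, minus strand, 13 exons). It has processed pseudogenes that are not analysed here, and how reads shared with them were assigned is not stated, so its values carry that uncertainty.

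ANXA4 and ANXA5 were also low in shARNT. ANXA5, which binds phosphatidylserine and is the common probe for dying cells, was at 1120 ± 29.5 CPM in shControl, 1213 ± 11.8 CPM in shBMAL1 and 512 ± 11.3 CPM in shARNT. ANXA4 was at 1096 ± 30.2 CPM, 1004 ± 27.0 CPM and 395 ± 1.87 CPM in the same order. Their log2 fold changes were -1.13 (SE 0.0337) and -1.47 (SE 0.0348) in shARNT, and 0.12 (SE 0.0332) and -0.13 (SE 0.0339) in shBMAL1. ANXA5 was thus at 45.7% and ANXA4 at 36.0% of the control mean in shARNT, and at 108% and 91.6% in shBMAL1.

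ANXA6, the member with a duplicated core, was lower in both depletions. It ranged from 481 to 500.4 CPM in shControl, from 271 to 291 CPM in shBMAL1 and from 193 to 218 CPM in shARNT, and no groups overlapped. The log2 fold changes were -0.81 (SE 0.0431) in shBMAL1 and -1.26 (SE 0.0436) in shARNT. ANXA9, an atypical member whose calcium-binding sites are largely lost, was also lower in both but at a low level. It was at 6.09 ± 0.242 CPM in shControl, 3.30 ± 0.580 CPM in shBMAL1 and 3.69 ± 0.285 CPM in shARNT, on 90 to 210 counts in a library. The log2 fold changes of ANXA9 were -0.88 (SE 0.145) and -0.72 (SE 0.141).

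ANXA1 and ANXA7 were higher in both depletions. ANXA1, a glucocorticoid-induced protein that acts on formyl peptide receptors to dampen inflammation, was at 856 ± 17.8 CPM in shControl, 1341 ± 30.5 CPM in shBMAL1 and 1017 ± 37.1 CPM in shARNT. That is a log2 fold change of 0.65 (SE 0.0352) in shBMAL1 and of 0.25 (SE 0.0351) in shARNT. ANXA7, also called synexin, was at 145 ± 6.36 CPM, 221 ± 7.72 CPM and 253 ± 6.85 CPM in shControl, shBMAL1 and shARNT. Here the higher level was that of shARNT, with log2 fold changes of 0.61 (SE 0.0425) and 0.80 (SE 0.0424).

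ANXA3 was higher in shARNT, at 37.6 ± 2.01 CPM against 20.8 ± 1.98 CPM in shControl (log2 fold change 0.85, SE 0.0813). In shBMAL1 it was at 18.2 ± 2.08 CPM, and its libraries overlapped with shControl. The log2 fold change there was -0.19 (SE 0.0857), and the call was lost without shControl replicate 2 (-0.12) or without shBMAL1 replicate 3 (-0.11). It was also lost when libraries were scaled by their size alone (-0.15). ANXA11, which links RNA granules to lysosomes, had the smallest change of the family in shARNT. It was at 220.4 ± 6.99 CPM in shControl, 254 ± 2.77 CPM in shBMAL1 and 207 ± 10.3 CPM in shARNT. The log2 value for shARNT, -0.09 (SE 0.0414), became 0.14 when libraries were scaled by their size alone. That call was also lost without shControl replicate 1 (-0.07) or without shARNT replicate 1 (-0.05).

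**Figure D2:**
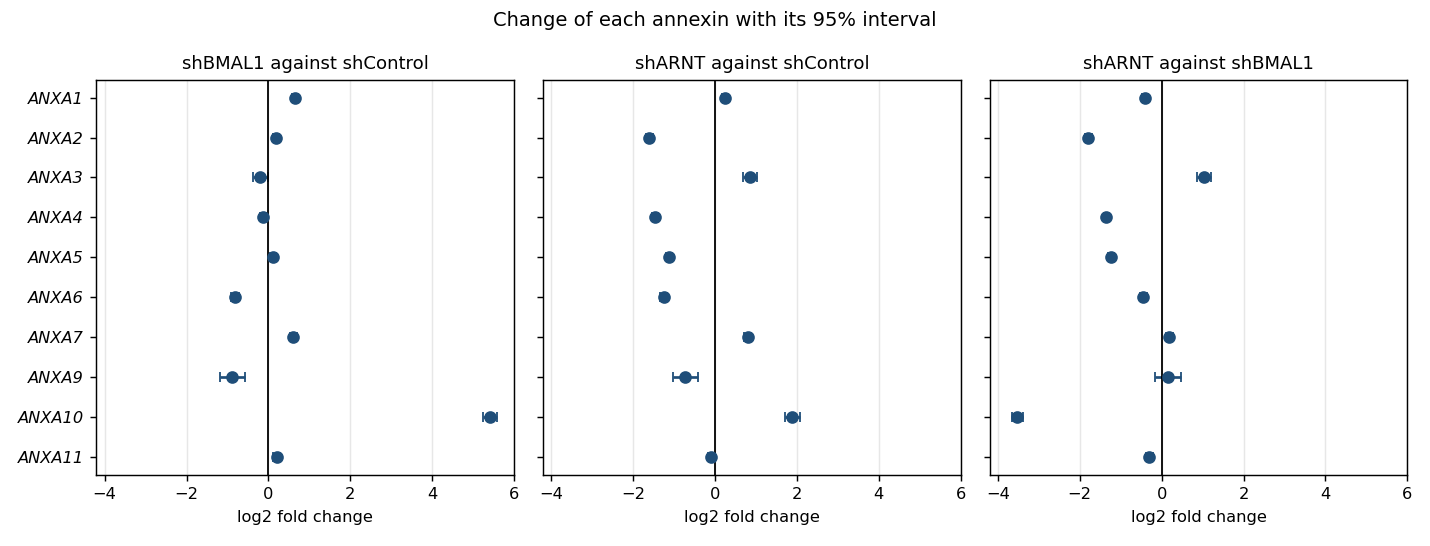
Log2 fold change of each annexin (points) with its 95% interval (bars) in 3 comparisons, with the vertical line at 0. ANXA10 lies at 5.42 and 1.89 against shControl in shBMAL1 and shARNT, ANXA2, ANXA4, ANXA5 and ANXA6 lie below -1 in shARNT, and in the direct comparison the interval of ANXA9 spans 0.

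Counted over the family, 4 members were called higher and 6 lower in shARNT against shControl, by the edgeR quasi-likelihood test at a Benjamini-Hochberg adjusted p under 0.1. All 10 were called, where 81.8% of all tested genes were. In shBMAL1 against shControl 6 were called higher and 4 lower, where 63.3% of all tested genes were called. The libraries of the groups did not overlap for 10 members in shARNT (79.8% of all tested genes) and for 9 in shBMAL1 (62.2%). All 10 passed the filter on low counts. The median log2 fold change of the family was -0.41 in shARNT and 0.15 in shBMAL1, against -0.01 and 0.00 over all genes, and the median absolute change was 0.99 and 0.41 against 0.66 and 0.32. Since the members were chosen on these comparisons, nothing is read from the counts.

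The directions in shARNT were set beside the promoter matches. The 6 members with ACGTG or GCGTG in any of their windows (ANXA2, ANXA4, ANXA5, ANXA6, ANXA9 and ANXA11) were the 6 that were lower, and the 4 without a match were the 4 that were higher, with the reservation on ANXA11 given above. Members with several windows had more chances of a match. ANXA4 had a match in 1 window and none in another, and a window of ANXA11 also held none. This split was noticed after the values were seen and has no test. Over all tested genes with a promoter window, 40.2% of the 6839 with a match and 42.9% of the 3920 without a match were called lower in shARNT, and 44.0% and 39.4% were called higher. In shBMAL1, 3 of the 6 members with a match and 1 of the 4 without a match were lower, against 32.3% and 31.7% of all tested genes with a window.

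The depletions were then compared with each other, and this difference shares the depleted libraries with the comparisons above. The control libraries do not enter the difference itself, but they enter the filter, the scaling and the estimate of the spread. In shARNT against shBMAL1, 2 members were called higher (40.1% of all tested genes) and 7 lower (41.1%), and the libraries of the groups did not overlap for 9 members. Over all genes 81.2% were called and 79.6% did not overlap. ANXA4 differed by -1.35 on the log2 scale (SE 0.0347, adjusted p = 4.38e-18, edgeR quasi-likelihood test), and ANXA5 by -1.24 (SE 0.0337, adjusted p = 1.0e-17). ANXA3 was the member with the largest positive difference, 1.04 (SE 0.0820, adjusted p = 3.36e-10), and was higher in each shARNT library than in any shBMAL1 library.

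Of the other members, ANXA6 (-0.44, adjusted p = 1.0e-08), ANXA1 (-0.40, adjusted p = 1.98e-09) and ANXA11 (-0.30, adjusted p = 1.52e-06) had the lower level in shARNT by the same test, while ANXA7 was higher (0.19, adjusted p = 3.28e-04). ANXA9 was not called (0.16, 95% interval -0.15 to 0.47, adjusted p = 0.338). As a description, ANXA10 differed by -3.53 (SE 0.0658) and ANXA2 by -1.79 (SE 0.0395). The median over the family was -0.42, against -0.01 over all genes.

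Because the members differ in transcript length, they were compared with each other as CPM per kilobase of the main annotated transcript. In shControl the order was ANXA5 (684), ANXA1 (611), ANXA4 (413), ANXA2 (375), ANXA6 (169), ANXA7 (59.5), ANXA11 (32.7), ANXA3 (14.6), ANXA9 (3.92) and ANXA10 (2.34 CPM per kilobase). No neighbours in this order overlapped between libraries. In shBMAL1 ANXA1 came first (957 CPM per kilobase) and ANXA10 moved from the last place to the fifth (100.1 CPM per kilobase), where it overlapped with ANXA6 (96.5 CPM per kilobase). In shARNT ANXA1 was also first (726 CPM per kilobase), with ANXA5 second at 313 CPM per kilobase.

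The sum over the family was 2366 ± 26.9 CPM per kilobase in shControl, 2843 ± 31.4 in shBMAL1 and 1553 ± 41.8 in shARNT. The order of the groups was the same under library size alone (2215, 2750.0 and 1713 CPM per kilobase). ANXA1 made up 25.8 ± 0.347% of the family sum in shControl, 33.7 ± 0.483% in shBMAL1 and 46.7 ± 0.451% in shARNT. ANXA5 went the other way, from 28.9 ± 0.662% to 26.1 ± 0.296% and 20.1 ± 0.0991%. ANXA2 held 15.9 ± 0.460%, 15.0 ± 0.318% and 7.93 ± 0.102% in the same order, and ANXA10 held 0.0987 ± 0.0122%, 3.52 ± 0.208% and 0.559 ± 0.0459%. The largest single part of the annexin transcripts was thus ANXA5 in shControl and ANXA1 in both depletions.

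**Figure D3:**
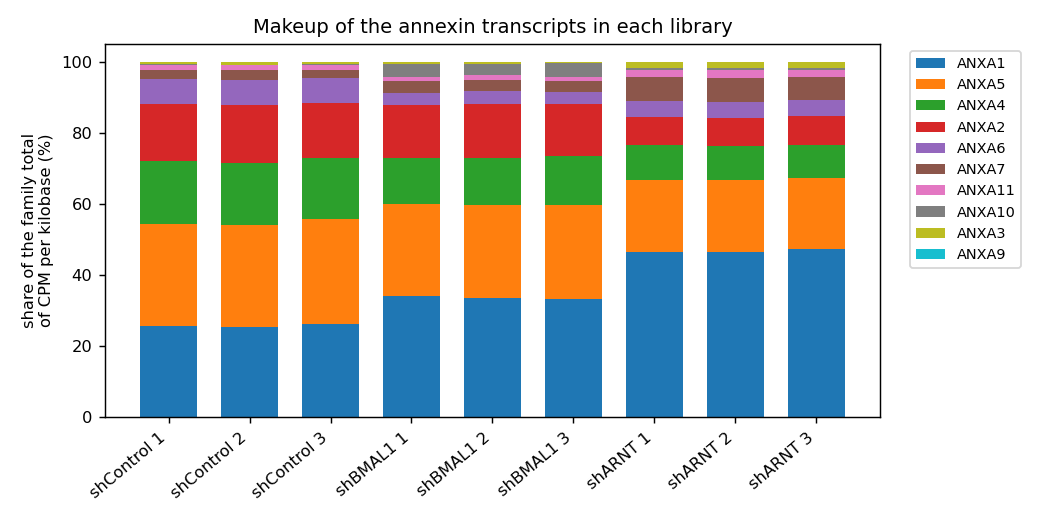
Share of each annexin in the family sum of CPM per kilobase (stacked bars, in percent) in each of the 9 libraries. The ANXA1 part grows from a mean of 25.8% in shControl to 33.7% in shBMAL1 and 46.7% in shARNT, and the ANXA10 part is visible as a wide band only in shBMAL1.

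Other annexin genes were few. ANXA13, which was tested and is no member of the chosen set, was at 4.14 ± 0.276 CPM in shControl, 11.2 ± 0.600 CPM in shBMAL1 and 1.64 ± 0.0224 CPM in shARNT. ANXA13 differed between the depletions by -2.77 (SE 0.127, adjusted p = 4.83e-14, edgeR quasi-likelihood test). ANXA8 and its near-identical copies ANXA8L1 and ANXA8L2 had 0 to 10 counts in a library, and were not tested.

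The binding partners were examined as gene lists. These and the pathway lists below were chosen with earlier results of these data known, so the p-values of their genes are not independent of that choice. Of 5 tested S100 partners, 4 were called lower and 0 higher in shARNT against shControl (41.3% and 40.5% of all tested genes), and 2 were called higher and 0 lower in shBMAL1 (31.9% and 31.5%). S100A10, the partner of ANXA2, had 17950, 17035 and 16504 counts in shControl, 18919, 19805 and 18758 in shBMAL1, and 1743, 1699 and 1861 in shARNT. As with ANXA2, the shARNT libraries were low and the other groups were close to each other. S100A10 was at 519 ± 19.8 CPM in shControl, 559.9 ± 13.0 CPM in shBMAL1 and 44.6 ± 2.04 CPM in shARNT, and its log2 fold changes against shControl were 0.11 (SE 0.0396) and -3.54 (SE 0.0453). Between the depletions it differed by -3.65 (SE 0.0454, adjusted p = 7.0e-23, edgeR quasi-likelihood test), where ANXA2 differed by -1.79.

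S100A11, the partner of ANXA1, moved opposite to ANXA1 in shARNT. It was at 372 ± 6.46 CPM in shControl, 436 ± 24.0 CPM in shBMAL1 and 87.3 ± 3.06 CPM in shARNT, and it differed between the depletions by -2.32 (SE 0.0445, adjusted p = 4.05e-20, edgeR quasi-likelihood test). S100A6, which binds ANXA11 among others, was at 773 ± 16.0 CPM, 799 ± 19.3 CPM and 223 ± 2.31 CPM in the same order. Its direct difference was -1.84 (SE 0.0352, adjusted p = 3.75e-20). In shBMAL1 S100A6 was not called (0.05, 95% interval -0.02 to 0.12).

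The penta-EF-hand and ESCRT partners were mixed, with 5 of 7 called higher and 2 lower in shARNT (40.5% and 41.3% of all tested genes), and 2 higher, 1 lower and 4 not called in shBMAL1 (31.9% higher and 31.5% lower over all tested genes). PDCD6, also called ALG-2, was at 132 ± 5.05 CPM in shControl, 142 ± 6.28 CPM in shBMAL1 and 164 ± 0.165 CPM in shARNT. SRI, which encodes sorcin, was at 162 ± 5.87 CPM, 195 ± 3.83 CPM and 81.5 ± 0.884 CPM. These partners of ANXA7 and ANXA11 differed between the depletions in opposite directions, PDCD6 by 0.21 (adjusted p = 1.89e-04) and SRI by -1.26 (adjusted p = 1.98e-16, edgeR quasi-likelihood test).

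The genes of membrane repair were called lower in 7 of 7 tested cases in shARNT (41.3% of all tested genes). Their log2 fold changes there ranged from -0.14 for CAPN1 to -2.75 for CAV1, and DYSF rested on 9 to 83 counts in a library. In shBMAL1 4 of the membrane repair genes were lower (31.5%), 1 was higher (31.9%) and 2 were not called. Directly between the depletions, 4 were lower in shARNT (41.1% of all tested genes), 1 was higher (40.1%) and 2 were not called. The list of phosphatidylserine exposure, which holds scramblases and flippases that set the ligand of ANXA5 on the cell surface, had 4 of 6 lower and 1 higher in shARNT (41.3% and 40.5% of all tested genes), and 4 higher and 2 lower in shBMAL1 (31.9% and 31.5%). All 6 were lower in shARNT than in shBMAL1, where 41.1% of all tested genes were.

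In plasminogen activation, 3 of 4 tested genes were lower and 1 higher in shARNT (41.3% and 40.5% of all tested genes), and 3 were higher (31.9%) and 1 not called in shBMAL1. PLAT, the tissue plasminogen activator that the ANXA2 complex binds, had 124, 117 and 158 counts in shControl, 1199, 1186 and 1160 in shBMAL1, and 260, 246 and 320 in shARNT. It was thus high in all 3 shBMAL1 libraries, with log2 fold changes of 3.10 (SE 0.110) in shBMAL1 and 0.79 (SE 0.121) in shARNT. The urokinase receptor gene PLAUR was at 109 ± 3.51 CPM in shControl, 129 ± 3.72 CPM in shBMAL1 and 43.8 ± 2.54 CPM in shARNT. Urokinase itself, PLAU, was low throughout, with 25 to 91 counts in a library. All 3 were lower in shARNT than in shBMAL1, PLAT by -2.31 (adjusted p = 1.97e-14), PLAUR by -1.56 (adjusted p = 1.47e-16) and PLAU by -1.49 (adjusted p = 4.29e-06, edgeR quasi-likelihood test).

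Of the annexin A1 receptors and phospholipase list, 3 of 5 genes were tested. PLA2G4A, the cytosolic phospholipase A2 that annexins can inhibit, was at 26.6 ± 2.20 CPM in shControl, 53.7 ± 2.43 CPM in shBMAL1 and 7.24 ± 0.767 CPM in shARNT. The groups did not overlap, and it differed between the depletions by -2.89 (SE 0.0809, adjusted p = 1.64e-17, edgeR quasi-likelihood test). In shARNT 1 gene of the list was higher (40.5% of all tested genes), 1 lower (41.3%) and 1 not called, and in shBMAL1 all 3 were higher (31.9%). These 3 were PLA2G4A, TRPM7 and FPR1. FPR1, the only formyl peptide receptor gene tested, rested on just 3 to 25 counts in a library.

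**Figure D4:**
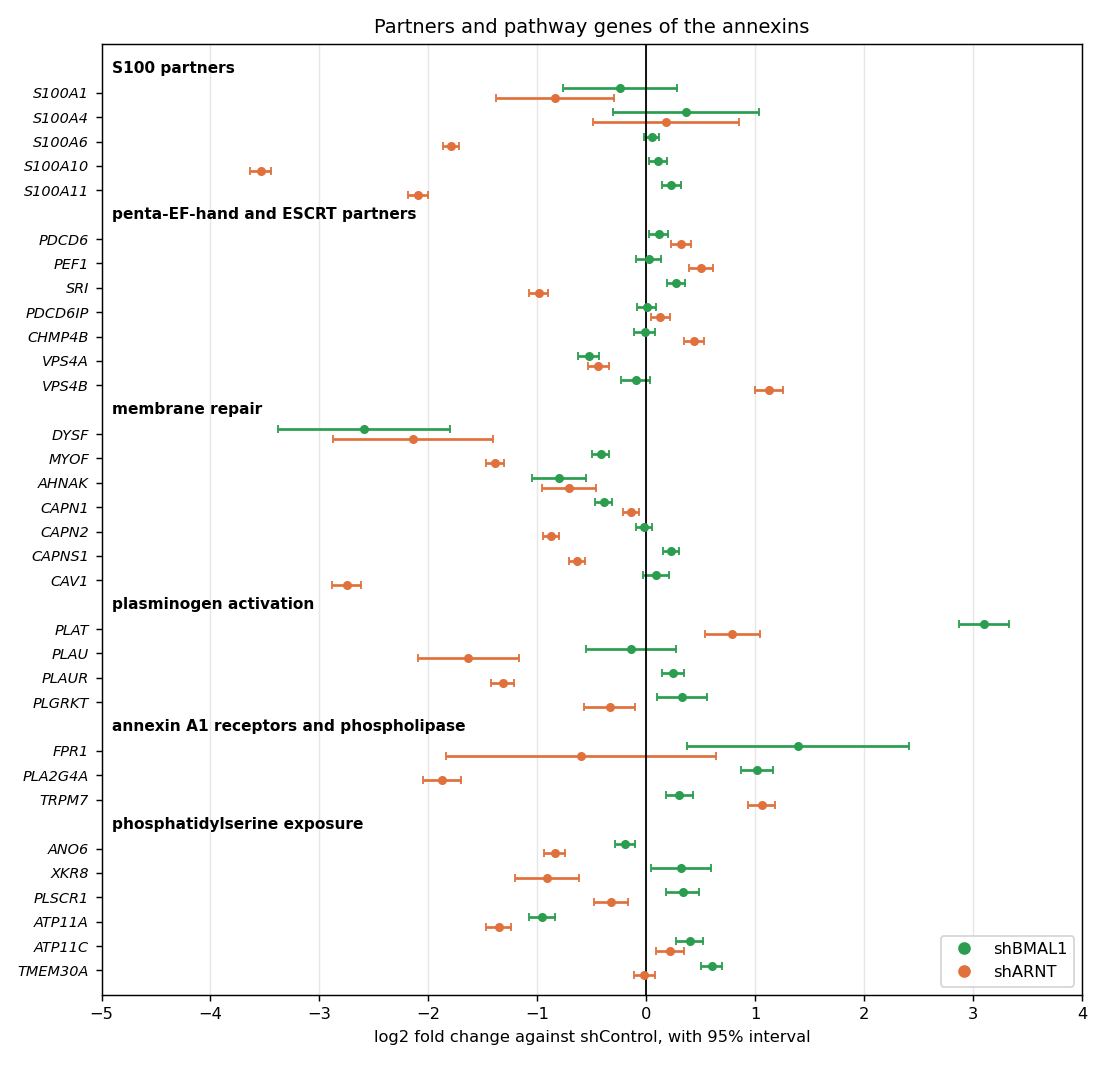
Log2 fold change against shControl with its 95% interval for each tested partner and pathway gene, in shBMAL1 (green) and shARNT (orange), grouped by list. S100A10, S100A11 and S100A6 lie at -3.54, -2.09 and -1.80 in shARNT and between 0.05 and 0.23 in shBMAL1, and PLAT lies at 3.10 in shBMAL1.

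The genes with the pattern most like that of ANXA10 were found by the root mean square difference of log2 CPM over the 9 libraries, each gene centred on its shControl mean and with a pseudocount of 0.5 CPM. They were AREGB (0.757), BIRC3 (0.800), AREG (0.828), RRAD (1.01) and PLAT (1.44), all high in shBMAL1. AREG, the EGF receptor ligand amphiregulin, was at 1.52 ± 0.323 CPM in shControl, 47.7 ± 3.89 CPM in shBMAL1 and 2.35 ± 0.156 CPM in shARNT. AREG and AREGB are near-identical copies, so their separate values are uncertain. BIRC3, an inhibitor of apoptosis, was at 5.38 ± 0.864 CPM, 86.6 ± 6.98 CPM and 22.8 ± 0.332 CPM in the same order. For ANXA2 the most alike genes had smaller differences, and they were ITGA4 (0.0445), NPR2 (0.0462), TIMP1 (0.0503), CTSZ (0.0604) and MGLL (0.0611).

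**Figure D5:**
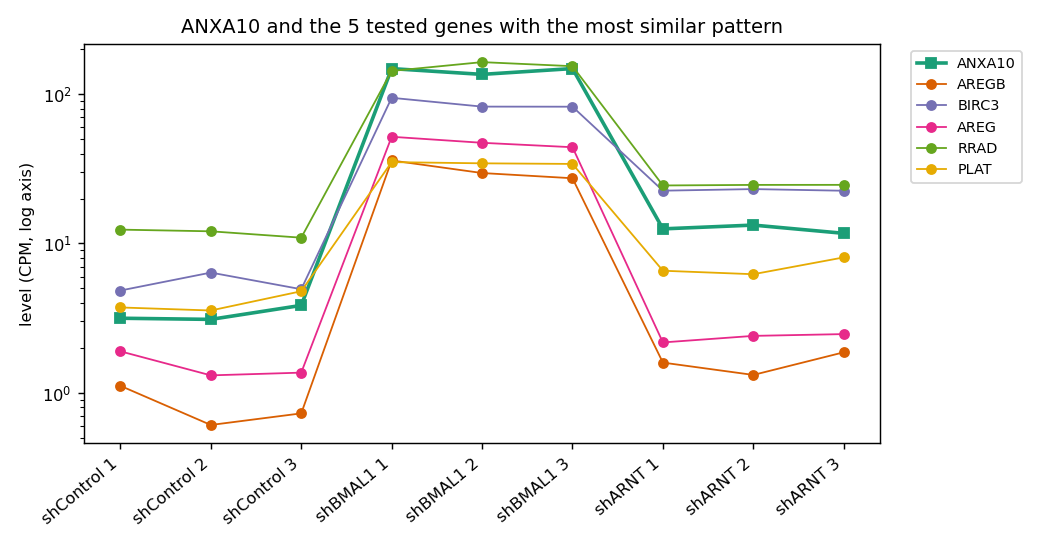
Level in CPM on a log axis of ANXA10 (squares) and of the 5 tested genes most like it (circles) in each of the 9 libraries. All 6 genes are highest in the 3 shBMAL1 libraries, where ANXA10 lies near 144 CPM and AREG near 47.7 CPM, and lines join the libraries only to guide the eye.

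The nearest tested genes in the genome were compared with ANXA10 and ANXA2. DDX60, 28555 bases after ANXA10, was at 15.6 ± 1.20 CPM in shControl, 31.6 ± 1.42 CPM in shBMAL1 and 25.1 ± 0.341 CPM in shARNT. DDX60 thus had its highest level in shBMAL1 as ANXA10 did, with a log2 fold change of 1.02 (SE 0.0695), and differed directly between the depletions by -0.33 (adjusted p = 1.46e-04, edgeR quasi-likelihood test). TLL1, 1988079 bases before ANXA10, was under 1 CPM on average in each group. Beside ANXA2, NARG2 (16726 bases away) was at 30.1 ± 1.76 CPM, 33.1 ± 1.13 CPM and 21.2 ± 0.345 CPM in shControl, shBMAL1 and shARNT, and BNIP2 (657795 bases away) was at 49.4 ± 2.66 CPM, 64.6 ± 3.31 CPM and 105 ± 4.40 CPM. The ANXA2 neighbours thus differed between the depletions in opposite directions, NARG2 by -0.65 (adjusted p = 7.73e-09) and BNIP2 by 0.69 (adjusted p = 2.15e-10, edgeR quasi-likelihood test).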

How the data were processed

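RNA of A498 cells was sequenced as paired-end stranded mRNA libraries, with 9 libraries in 3 groups taken from the sample titles. The authors aligned reads to GRCh37 with SeqMan NGen and exported expected counts per gene with ArrayStar, and these deposited expected counts were not normalized. The submitters' processing notes also name hg38, STAR and DESeq2 without a role. The annotation, the use of strand, reads with several alignments and the counting of mates are not given in the sources used here. A value of 0.05, which stood for no reads, was replaced by 0, values were rounded to whole counts, and rows that shared 1 of 43 repeated names were summed. All 90 member values were whole numbers.

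Counts were tested with edgeR 4.0.16 in R 4.3.3 (TMM, filterByExpr, glmQLFit and glmQLFTest, group as the only factor, all 9 libraries in a single fit). Benjamini-Hochberg adjustment ran over the 15551 genes tested, and genes were called under 0.1. Replicates differed by more than sampling noise, so none were merged. The fit was tested on simulated data. CPM and CPM per kilobase were computed here, with lengths and GRCh37 positions from GENCODE release 44 lifted to GRCh37. Promoters came from RefSeq in GRCh38.p14, and no coordinates were converted. P-values weigh a difference between groups against the spread between these biological replicates. They do not cover a spread between hairpins.

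The members and the partner and marker lists were chosen with earlier results of these data known. Values are given for the 10 members, other annexins, set members of each list, the 5 most alike genes and the nearest tested genes of ANXA10 and ANXA2, and the targeted genes. CD68, PTPRC, COL1A1, CD3E, HBB, NDUFA4L2, VIM, PAX8, KRT18, CAPN1, CAV1, DYSF, TRPM7 and FPR1 were named after their values were seen. Alternatives were library size alone, DESeq2 1.42.0, no filter, 6 libraries, a replicate block, halved counts, a minimum fold change of 1.5 and leaving out each library.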

Additional observations from a re-analysis of the deposited data

Results flagged for a closer look

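For 9 of the 10 members the changes after the depletions differed, by the direct edgeR quasi-likelihood comparison of shARNT with shBMAL1. The log2 differences were -3.53 for ANXA10, -1.79 for ANXA2, -1.35 for ANXA4, -1.24 for ANXA5, -0.44 for ANXA6, -0.40 for ANXA1 and -0.30 for ANXA11, all lower in shARNT. They were 1.04 for ANXA3 and 0.19 for ANXA7, both higher in shARNT. The values of ANXA10 and ANXA2 are a description, because these genes were chosen for their changes. With 81.2% of all tested genes called in this comparison, a difference of this kind is common in these data.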

How the results depend on the processing

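When the counts of called members were recomputed, 46 stayed within 1.5 times the count reported and 2 did not. A minimum fold change of 1.5 left 4 called members in shBMAL1 against shControl (2 higher, 2 lower) and 5 in shARNT against shBMAL1 (1 higher, 4 lower), where 2111 and 6831 of all 15551 tested genes were called. In shARNT against shControl it left 7 (3 higher, 4 lower), where 6965 of all tested genes were called, and ANXA1, ANXA9 and ANXA11 lost their call. Leaving out 1 library gave 9 to 10 called members in each comparison with shControl and 9 in every case between the depletions. Among the recomputed log2 fold changes of members, 460 kept their direction and their call, 18 lost the call, 1 gained it and 1 reversed. The reversed value was ANXA11 in shARNT against shControl, which was 0.14 under library size alone. That scaling put the median of all genes at 0.23 in shARNT and 0.05 in shBMAL1 against shControl and at 0.18 between the depletions, and the cause of the reversal was not tested. The split of called members was then 5 higher and 5 lower, 6 and 3, and 3 and 7. Under it ANXA9 was called between the depletions (0.35, adjusted p = 0.0386). Same-numbered libraries of different groups did not deviate together (Pearson r of -0.041 to 0.075 across genes), so the numbers do not pair them. With the replicate number as a block, 10, 10 and 9 members were called, as without it. The sum of ANXA2 with its processed pseudogenes was not run, because ANXA2P1, ANXA2P2 and ANXA2P3 were not found by name in the counts used here. Mates may have been counted separately, and halved counts changed no call of a member. With 1 shRNA group per gene, effects of the hairpin and of the targeted gene cannot be told apart.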
